A study of Homo sapiens with 6 samples.

Results

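The insulin-like growth factor (IGF) binding protein genes IGFBP1 to IGFBP7 and the receptor genes IGF1R, IGF2R and INSR were taken by symbol from the deposited table of read counts. All 10 were present, of 60835 distinct symbols, and 9 of the 10 had enough reads to be tested. RNA came from PANC-1, an established human line of pancreatic epithelioid carcinoma whose SMAD4 gene had been knocked out. The 3 WT libraries are from knockout cells transfected with wild-type SMAD4, and the 3 R272K libraries from knockout cells transfected with SMAD4 in which an arginine is replaced by lysine, all on day 3. SMAD4 joins SMAD proteins that TGF-β or BMP receptors have activated and enters the nucleus with them, and the series concerns its arginine methylation by PRMT1. No library came from knockout cells without re-introduced SMAD4. The sources used here do not give the promoter that drives the introduced SMAD4, or whether the knockout line is 1 clone.

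IGF1 and IGF2 act through the IGF1R tyrosine kinase, and insulin through the closely related INSR, which also binds IGF2 in one of its splice forms. IGF2R, the cation-independent mannose 6-phosphate receptor, has no kinase and carries IGF2 to the lysosome. The binding proteins hold IGFs outside the cell and limit, or in some settings prolong, their access to the receptors. IGFBP1 to IGFBP6 bind IGFs with high affinity, IGFBP6 with a marked preference for IGF2, whereas IGFBP7 binds IGFs weakly.

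SMAD4 transcript itself differed between the groups, at 83.4, 93.6 and 89.0 CPM (counts brought to the same library total) in WT replicates 1 to 3 and 40.6, 45.6 and 43.6 CPM in R272K replicates 1 to 3. Its log2 fold change, R272K over WT, was -1.03 (SE 0.075, edgeR adjusted p = 6.28e-06), so that the substitution and the amount of SMAD4 transcript cannot be told apart in any comparison below. Reads of SMAD4 were counted per gene, so introduced SMAD4 and any transcript left from the knocked-out gene were not separated. Library totals were 14776148 to 17706201 counts. On the leading principal component WT replicate 1 lay at -31.3, away from the other libraries at -9.56 to 15.6, and long genes were under-represented in it relative to the rest of the WT group (Spearman's rho of -0.41 between gene length and the log2 ratio, across genes). Epithelial keratin and EPCAM transcripts summed to 3935 to 4445 TPM (a level scaled by gene length) in the WT libraries and 4714 to 5185 TPM in the R272K libraries. Of these 5 genes 0 were called by edgeR, and 2, KRT8 and EPCAM, had an unadjusted p under 0.05, against 14.3% of all genes tested. In the WT and R272K groups, means were 2420 and 3077 TPM for KRT8 and 1390 and 1525 TPM for KRT18. EPCAM stood at 7.33 and 9.73 TPM, KRT19 at 315 and 299 TPM, and KRT7 at 7.81 and 7.36 TPM. Their part in the differences below was not tested. Markers of fibroblasts, leukocytes, endothelium, hepatocytes, acinar and islet cells summed to at most 2.01 TPM per list in any library, although each gene of these lists had at least 1 read in some library.

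Of the 9 tested members 1, IGFBP6, passed the test, and it fell with R272K SMAD4. IGFBP6 (ENSG00000167779, chromosome 12, 53097436 to 53102345, GRCh38, plus strand) stood at 18.6, 16.7 and 16.5 CPM in WT replicates 1 to 3 and at 10.4, 10.1 and 11.1 CPM in R272K replicates 1 to 3. Every R272K library lay below every WT library. Group means were 17.3 ± 1.15 CPM and 10.5 ± 0.497 CPM (SD, n = 3 each). The log2 fold change was -0.72 (SE 0.104, edgeR adjusted p = 0.00356), which is 1.64-fold lower. This rests on 825 reads in the WT libraries and 480 in the R272K libraries. Across all 15911 genes tested 1.21% were called, 0.528% lower and 0.685% higher. In bulk RNA, fewer cells with the transcript and less transcript per cell cannot be told apart. IGFBP6 kept its call when each library was left out in turn, with log2 fold changes between -0.75 and -0.66 and adjusted p between 0.000261 and 0.0393. Without WT replicate 1 the value was -0.66 (adjusted p = 0.000261), and with the dependence on gene length removed from every library it was -0.64 (adjusted p = 0.000678).

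**Figure D1:**
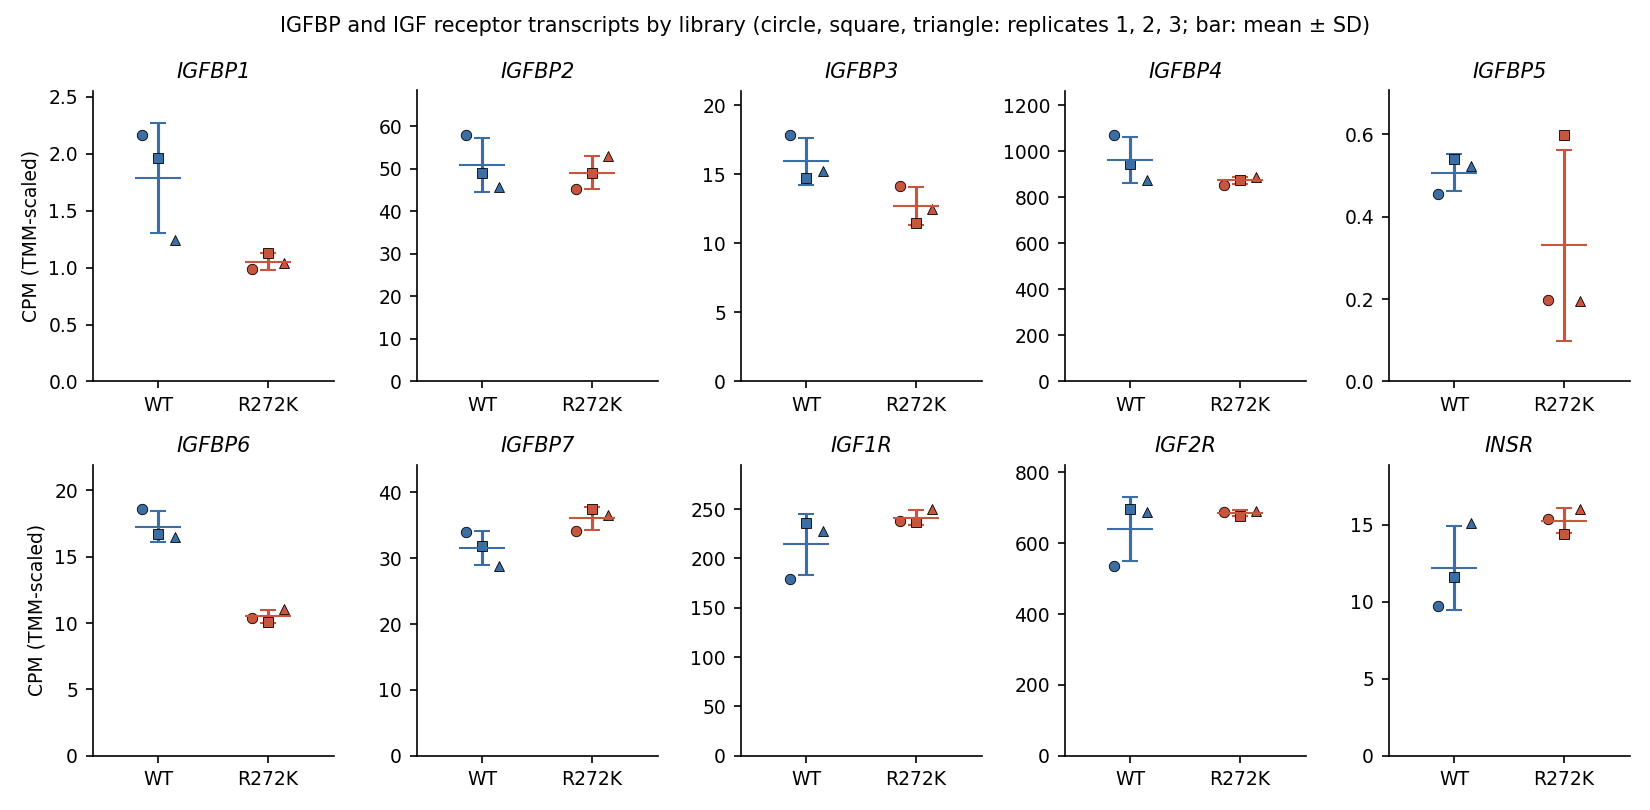
Level of each of the 10 members in each library, in CPM on TMM-scaled library sizes (vertical axes from 0, each gene on its own scale), for WT and R272K SMAD4; points are libraries and bars the mean ± SD of 3. The IGFBP6 panel shows the R272K libraries at 10.1 to 11.1 CPM, below all WT libraries at 16.5 to 18.6 CPM, while WT replicate 1 (circle) is the lowest library for IGF1R, IGF2R and INSR.

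The start region of IGFBP6, the called gene, is shown with that of IGFBP4, the most abundant binding protein, which was not called. Each sequence is 300 bases long, 250 before and 50 after the RefSeq start (GRCh38.p14, plus strand), at chr12:53097417-53097716 for IGFBP6 and chr17:40443200-40443499 for IGFBP4. Capitals mark the forkhead motif GTAAACA and the SMAD box AGAC in IGFBP6 and the TATA box TATAAA in IGFBP4.
IGFBP6: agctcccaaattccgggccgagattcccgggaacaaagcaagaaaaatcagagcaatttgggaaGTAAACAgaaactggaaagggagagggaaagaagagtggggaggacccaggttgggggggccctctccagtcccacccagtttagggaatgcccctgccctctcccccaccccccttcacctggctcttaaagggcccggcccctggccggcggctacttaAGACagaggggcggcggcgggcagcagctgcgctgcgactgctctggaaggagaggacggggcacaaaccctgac
IGFBP4: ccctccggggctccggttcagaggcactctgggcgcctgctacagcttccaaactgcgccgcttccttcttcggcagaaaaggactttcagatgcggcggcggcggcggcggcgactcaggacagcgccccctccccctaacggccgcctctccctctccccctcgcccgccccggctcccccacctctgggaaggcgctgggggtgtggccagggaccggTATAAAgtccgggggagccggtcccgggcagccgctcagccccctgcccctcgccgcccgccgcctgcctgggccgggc
The RefSeq start of IGFBP6 lies inside the span of the gene in the deposited table, so most of this window is within that span. Motifs were searched on both strands. In IGFBP6 GTAAACA began 186 bases before the start and AGAC 25 bases before it. GTAAACA, chosen after the sequence was seen, was present in 3.42% of 35116 RefSeq promoters of this length and AGAC in 84.0%, so that AGAC is found in most windows of this size. Of the 8 members with a promoter in the table (not IGFBP1 or IGFBP7), 6 held AGAC and 1, IGFBP6, held GTAAACA. The core of the interferon-stimulated response element was in 0 of the 8 and in 3.57% of all promoters. The TATA box of IGFBP4 began 29 bases before its start, and 11.5% of all promoters held one. A match of letters is a description and does not show binding.

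By the likeness of its pattern over the 6 libraries, IGFBP6 was nearest to HMOX1, which encodes the haem-degrading enzyme heme oxygenase 1. The root mean square difference of the centred log2 CPM was 0.0769. This likeness includes the difference between the groups. Genes chosen by it are therefore lower with R272K by selection, and their adjusted p-values are a description only. HMOX1 averaged 38.4 ± 2.91 CPM in the WT and 25.2 ± 0.807 CPM in the R272K group (log2 fold change -0.61, adjusted p = 0.0019). The histone gene H2AC6 (difference 0.0878) and DHRS9, a dehydrogenase gene of retinoid and steroid metabolism (difference 0.09), came next. They had log2 fold changes of -0.70 (adjusted p = 0.00744) and -0.59 (adjusted p = 0.00174). H2AC6 was not called without R272K replicate 2 or 3 (adjusted p = 0.0787 and 0.0783).

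Among the other high-affinity binding proteins, IGFBP1 and IGFBP3 also lay lower in all R272K libraries but did not pass the test. Both genes lie on chromosome 7, IGFBP1 (ENSG00000146678) at 45888360 to 45893660 on the plus strand and IGFBP3 (ENSG00000146674) at 45912245 to 45921874 on the minus strand, with 18584 bases between them. IGFBP1, which in liver is repressed by insulin, was near the limit of the assay, with 38, 29 and 19 reads in the WT libraries and 15, 17 and 16 in the R272K libraries. Its sums were 86 reads (95% Poisson interval 68.8 to 106, for counting error only) and 48 reads (35.4 to 63.6). The log2 fold change of -0.77 (SE 0.299, adjusted p = 0.261) had the largest size of any member and the largest error. IGFBP3, the main carrier of IGFs in serum and a known TGF-β target in several cell types, stood at 17.8, 14.7 and 15.2 CPM in the WT libraries and 14.2, 11.4 and 12.5 CPM in the R272K libraries. The lowest WT library lay 0.56 CPM above the highest R272K library. Its log2 fold change was -0.33 (SE 0.117, adjusted p = 0.22), and the 95% interval ran from -0.58 to -0.08.

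IGFBP2, IGFBP4 and IGFBP5 overlapped between the groups. IGFBP4, which is cleaved by the protease pappalysin to free bound IGF, was present at 1071, 944 and 875 CPM in the WT libraries and 855, 876 and 888 CPM in the R272K libraries. The highest value was again WT replicate 1, and the log2 fold change was -0.14 (SE 0.0726, adjusted p = 0.401, 95% interval -0.30 to 0.01). Without WT replicate 1 it was -0.06. IGFBP2, a binding protein with an integrin-binding RGD sequence, ranged from 45.7 to 58.0 CPM in WT and from 45.2 to 53.0 CPM in R272K libraries (log2 fold change -0.05, adjusted p = 0.834, 95% interval -0.26 to 0.15). Its estimate turned to 0.05 without WT replicate 1 and to 0.0021 without R272K replicate 1. IGFBP5, whose gene lies 7668 bases from IGFBP2 on chromosome 2, did not reach the filter on low counts, with 8 reads in each WT library and 3, 9 and 3 in the R272K libraries, and was not tested.

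IGFBP7, a secreted protein of the vessel and tumour stroma also called angiomodulin, lay higher in every R272K library. It stood at 33.9, 31.9 and 28.8 CPM in the WT libraries and 34.1, 37.5 and 36.6 CPM in the R272K libraries, so that the groups were 0.2 CPM apart at their closest. The log2 fold change was 0.19 (SE 0.0839, adjusted p = 0.322). It passed the threshold in 1 of 17 alternative settings, with the gene length trend removed (0.26, adjusted p = 0.0499). An exon of POLR2B overlaps IGFBP7 on the other strand, and the sources used here do not say if reads were assigned by strand, so reads there could not be told apart without it. POLR2B, a subunit gene of RNA polymerase II, was at 168.3 and 173.5 CPM (adjusted p = 0.816).

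0 of the 3 receptor genes passed the test. Their estimates were upward, and each was lower without WT replicate 1. IGF1R (ENSG00000140443, chromosome 15) stood at 179, 236 and 228 CPM in the WT libraries and 237, 237 and 249.9 CPM in the R272K libraries. Apart from WT replicate 1, the libraries of both groups spanned 21.9 CPM. Its log2 fold change was 0.17 (SE 0.0894, adjusted p = 0.406) and 0.06 (adjusted p = 0.535) without WT replicate 1. IGF2R (ENSG00000197081, chromosome 6) was at 536, 696 and 688 CPM in the WT libraries and 689, 676 and 689.9 CPM in the R272K libraries, so that the R272K values fell between WT replicate 1 and the other WT libraries or among the latter. Its estimate of 0.10 (SE 0.0866, adjusted p = 0.649, 95% interval -0.09 to 0.29) became -0.01 without that library. INSR (ENSG00000171105, chromosome 19) was the least abundant receptor, at 9.75, 11.6 and 15.1 CPM in the WT libraries and 15.4, 14.4 and 16.0 CPM in the R272K libraries. WT replicate 3 lay among the R272K libraries. The log2 fold change of INSR was 0.33 (SE 0.141, adjusted p = 0.304), 0.19 without WT replicate 1 (adjusted p = 0.451) and 0.52 without WT replicate 3 (adjusted p = 0.053). By the ratio of counts to TPM, the receptors have long transcripts. Their lengths were 4.08 (IGF2R), 3.51 (IGF1R) and 2.71 (INSR) times the median of tested genes, against 0.337 for IGFBP6 and 0.409 for IGFBP7. With the gene length trend of each library removed, the log2 fold change was 0.10 for IGF1R (adjusted p = 0.331), 0.02 for IGF2R (adjusted p = 0.879) and 0.27 for INSR (adjusted p = 0.225).

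**Figure D2:**
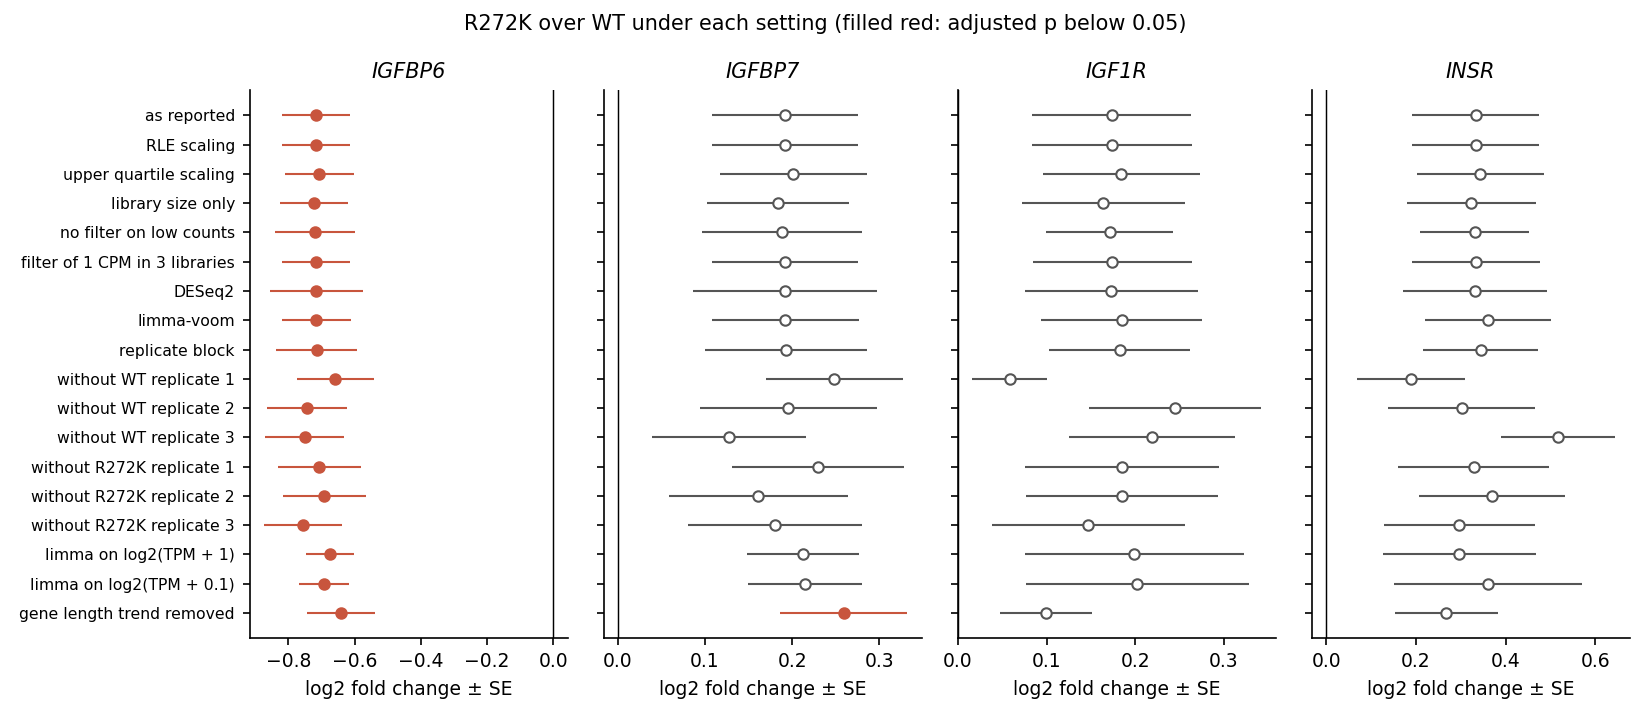
Log2 fold change, R272K over WT, with its SE for IGFBP6, IGFBP7, IGF1R and INSR, as reported and under each of 17 alternative settings; filled red points have an adjusted p below 0.05. IGFBP6 stays between -0.75 and -0.64 and is called in each setting. Without WT replicate 1 IGF1R drops to 0.06 and INSR to 0.19, whereas INSR rises to 0.52 without WT replicate 3.

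Over the 9 tested members, the groups did not overlap for 5 (IGFBP1, IGFBP3 and IGFBP6 lower, IGFBP7 and IGF1R higher), against 21.4% of all genes tested. 5 members had an unadjusted p under 0.05 (IGFBP1, IGFBP3, IGFBP6, IGFBP7 and INSR), against 14.3% of all genes tested. The estimates were below 0 for 5 members and above 0 for 4, with a median log2 fold change of -0.05 beside 0.00 for all genes.

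Levels of different members were compared on the TPM scale. IGFBP4 was the most abundant in every library, at 1218 to 1422 TPM, and made up 88.5% to 88.9% of the summed TPM of the 7 binding proteins. IGF2R followed at 110 to 156 TPM and IGFBP7 at 65.4 to 81.9 TPM, and these ranges did not overlap each other or that of IGFBP4. IGF1R (42.8 to 65.1 TPM), IGFBP6 (26.8 to 46.2 TPM) and IGFBP2 (32.1 to 38.5 TPM) overlapped as neighbours in the order. IGFBP3 (13.6 to 19.9 TPM) came next, then INSR (3.02 to 5.4 TPM) and IGFBP1 (1.93 to 3.96 TPM), which overlapped, and IGFBP5 was at or below 0.3 TPM. IGFBP6 and IGFBP2 changed places between the groups. In WT replicates 1 to 3 IGFBP6 stood at 46.2, 44.9 and 45.4 TPM and IGFBP2 at 38.5, 35.2 and 33.5 TPM. In R272K replicates 1 to 3 IGFBP6 stood at 27.7, 26.8 and 30.0 TPM and IGFBP2 at 32.1, 34.7 and 38.3 TPM. IGFBP6 was thus above IGFBP2 in 3 of 3 WT libraries and below it in 3 of 3 R272K libraries, a description for which no test was made.

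**Figure D3:**
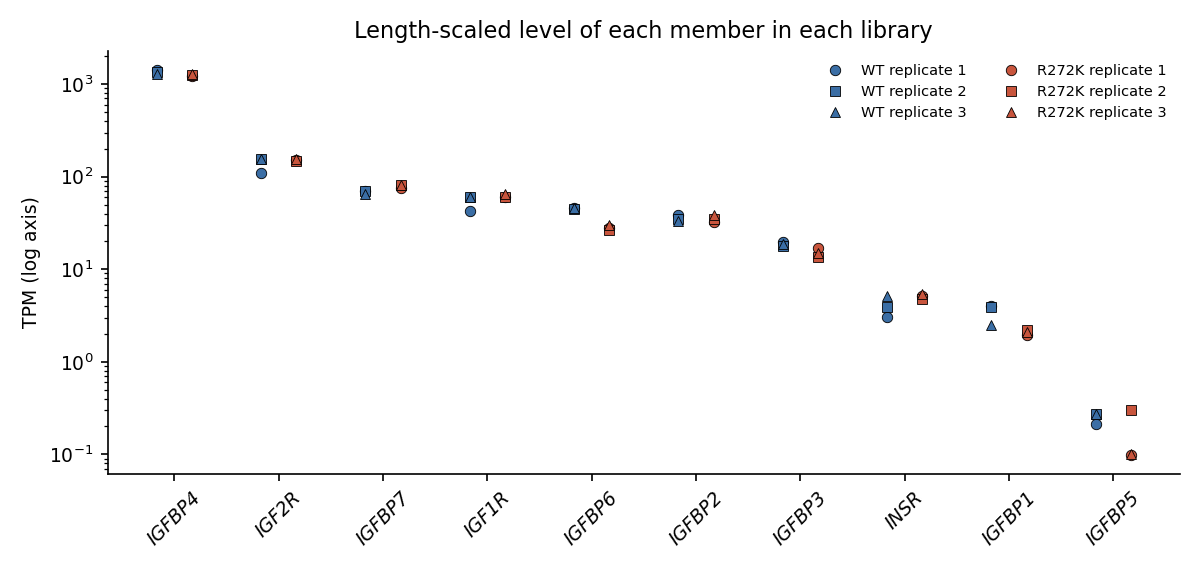
Length-scaled level (TPM, log axis) of the 10 members in each of the 6 libraries, ordered by their mean; WT libraries are blue and R272K libraries red. IGFBP4 lies at 1218 TPM or more throughout, and IGFBP6 is the member whose WT points (44.9 to 46.2 TPM) and R272K points (26.8 to 30.0 TPM) exchange order with IGFBP2.

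The summed TPM of the binding proteins, nearly all of it IGFBP4, was 1449.5 to 1601 with WT and 1372 to 1451 with R272K SMAD4, which overlapped. The ratio of IGF1R to INSR was 14.2, 15.7 and 11.6 in the WT libraries and 12.0, 12.7 and 12.1 in the R272K libraries on the TPM scale, within the WT range. The ratio of IGF2R to IGF1R was 2.57 ± 0.027 with WT and 2.44 ± 0.0615 with R272K SMAD4 (SD, n = 3 each), and was lower in each R272K library, with no test made.

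Of the ligands, IGF2 alone was measurable. IGF2 stood at 167, 159.8 and 153 CPM in the WT libraries and 161, 174 and 159 CPM in the R272K libraries (log2 fold change 0.04, SE 0.064, adjusted p = 0.808, 95% interval -0.10 to 0.18), so the groups overlapped. IGF1 had at most 3 reads and INS at most 1 read in any library, and IGFALS, the serum partner of the IGF and IGFBP3 complex, had 2 to 8. These 3 were not tested. The pappalysin genes PAPPA and PAPPA2, which encode proteases of IGF-binding proteins, had 0 to 8 reads and were not tested. Their inhibitors, the stanniocalcins, were abundant. STC2 was at 784 ± 56.1 and 719 ± 22.8 CPM (-0.12, adjusted p = 0.415) and STC1 at 56.6 ± 2.44 and 49.3 ± 1.19 CPM (-0.20, adjusted p = 0.213), with STC1 called without WT replicate 1 (-0.23, adjusted p = 0.0221).

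Downstream of the receptors, IRS2 was the 1 of 34 tested pathway genes (of 41 described) to pass the test. Over all genes tested, 1.21% were called. IRS2, an adaptor that links INSR and IGF1R to PI3-kinase, fell from 37.4, 37.6 and 37.1 CPM in the WT libraries to 26.3, 26.4 and 28.9 CPM in the R272K libraries. The groups were 8.29 CPM apart at their closest. The log2 fold change was -0.46 (SE 0.0767, edgeR adjusted p = 0.00921). IRS2 was not called without WT replicate 2 (-0.46, adjusted p = 0.0546), R272K replicate 1 (-0.44, adjusted p = 0.101) or R272K replicate 2 (-0.44, adjusted p = 0.103), and its adjusted p was 0.000156 without WT replicate 1. Nor was it called by limma on log2(TPM + 1) (-0.41, adjusted p = 0.146) or log2(TPM + 0.1) (-0.44, adjusted p = 0.142). Its paralogue IRS1 was at 86.2 and 87.8 CPM (0.03, adjusted p = 0.91). The start region of IRS2, the called adaptor, is given for GRCh38.p14 at chr13:109786534-109786833 on the minus strand, again from 250 bases before to 50 after the RefSeq start.
IRS2: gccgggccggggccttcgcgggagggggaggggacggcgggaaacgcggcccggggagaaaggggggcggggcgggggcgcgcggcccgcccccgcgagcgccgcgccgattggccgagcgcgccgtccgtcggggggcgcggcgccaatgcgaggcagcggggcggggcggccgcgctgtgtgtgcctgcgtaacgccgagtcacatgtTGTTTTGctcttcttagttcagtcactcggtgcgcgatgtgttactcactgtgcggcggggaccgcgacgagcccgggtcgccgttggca
Capitals mark TGTTTTG, the core of the insulin response element that FOXO factors bind in other promoters. It began 40 bases before the start and was chosen after the sequence was seen, and 4.92% of RefSeq promoters held it. AGAC and GTAAACA were not in this window.

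None of the other pathway genes was called by edgeR on all 6 libraries. The 34 had a median log2 fold change of 0.03 beside 0.00 for all genes tested, with 19 estimates above 0 and 15 below. Among the 34, the groups did not overlap for 2 higher and 2 lower genes, against 21.4% of all genes tested. The adaptor gene GAB1 had the smallest p after IRS2. It was higher in every R272K library (log2 fold change 0.39, SE 0.128, edgeR adjusted p = 0.18). Of the 19 tested genes of PI3-kinase, AKT and downstream steps, 0 were called by edgeR, DESeq2 or limma-voom. An unadjusted edgeR p under 0.05 was found for 14.3% of all genes tested, for 4 of the 34 and for 1 of these 19, AKT1. That kinase gene stood at 107, 112 and 111 CPM in the WT libraries and 122, 119.8 and 122 CPM in the R272K libraries, higher in every R272K library. Its log2 fold change was 0.14 (SE 0.0599, edgeR adjusted p = 0.3), and 0.08 (unadjusted p = 0.188, edgeR adjusted p = 0.528) with the gene length trend removed. AKT2 was far more abundant, at a mean of 1182 TPM against 43.1 TPM for AKT1, and it was at 1984 and 1980.2 CPM in the groups (0.00, adjusted p = 0.987). The 3 genes of IGF2 mRNA-binding proteins were not called, with IGF2BP2, the one with the smallest p, at 200.5 and 210.0 CPM (0.07, adjusted p = 0.654). Leaving out WT replicate 1 gave 4 called pathway genes, IRS2, STC1, FOXO3 and TSC1, all lower, while calls over all genes went from 193 of 15911 to 875 of 16334. Leaving out WT replicate 2, R272K replicate 1 or R272K replicate 2 gave 0, with 84, 59 and 60 genes called in all.

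**Figure D4:**
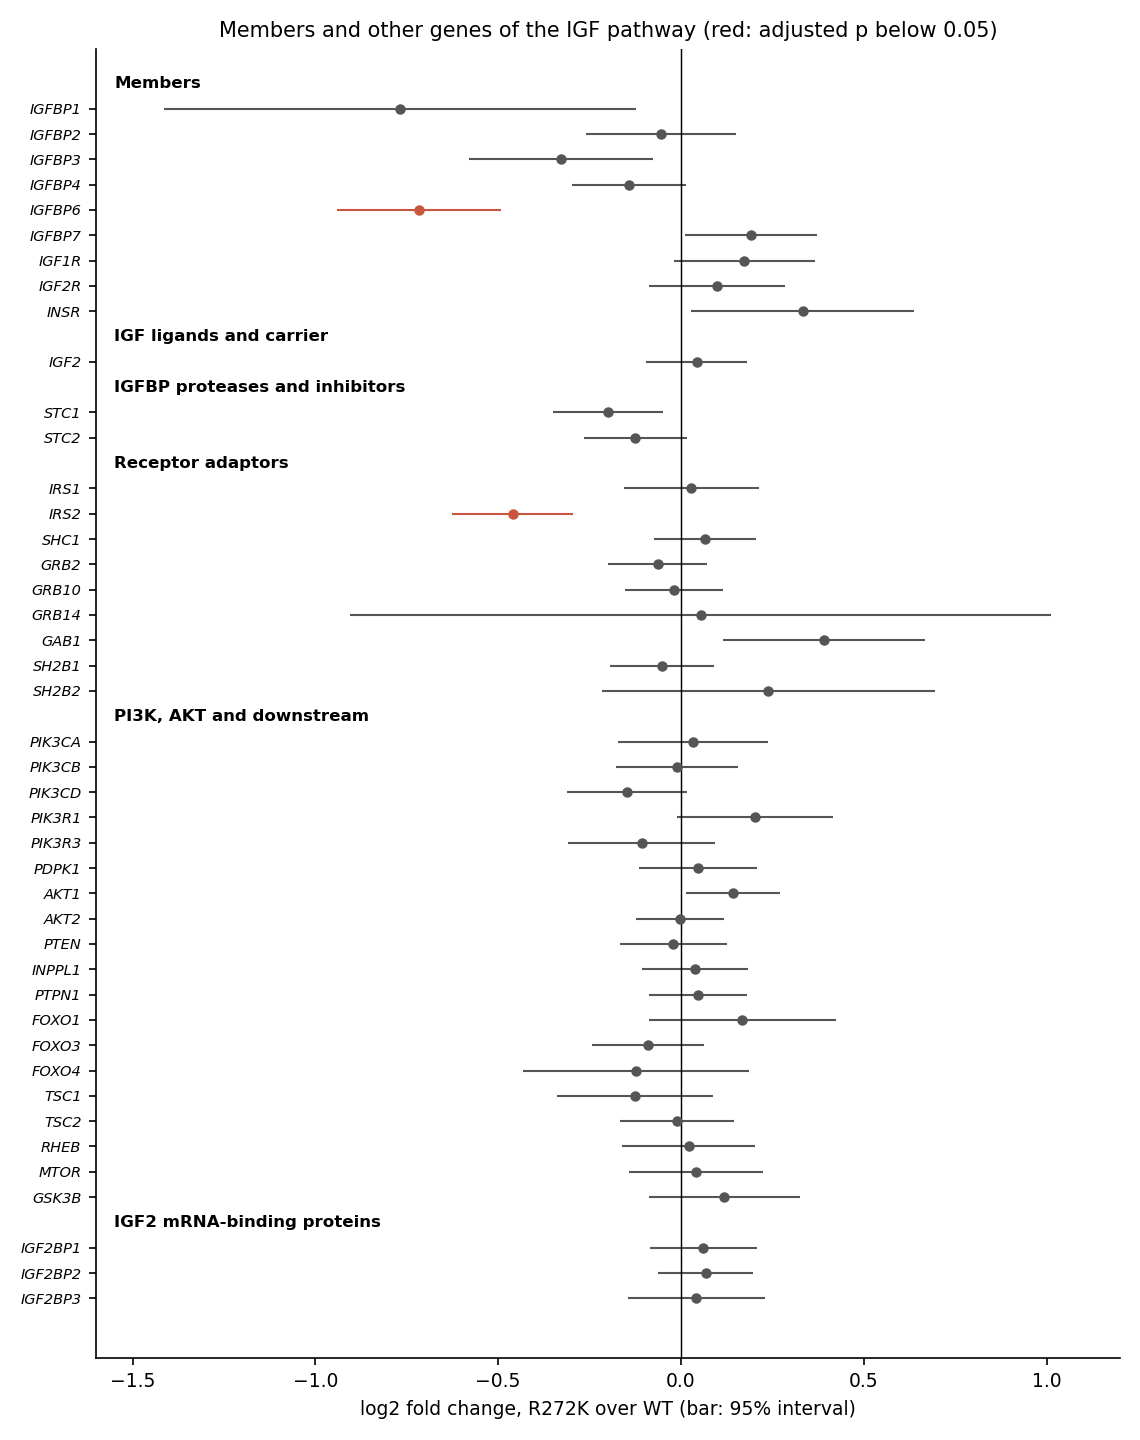
Log2 fold change, R272K over WT, with its 95% interval for the 9 tested members and the 34 tested genes of the pathway lists, grouped by role; red marks an adjusted p below 0.05. IGFBP6 (-0.72) and IRS2 (-0.46) are the called genes, and each grey gene was not called.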

How the data were processed

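Messenger RNA was enriched on oligo(dT) beads and fragmented, per the labels' protocols. Reads were processed with HISAT2 2.1.0, fastp 0.23.0, HTSeq 0.10.0 and SAMtools on GRCh38, per the submitters' processing notes, which as used here hold no settings and name no annotation release. Per the file headers and values, the authors deposited unnormalized counts for each symbol and a table of TPM, which sums to 1000000 per library over distinct symbols. A symbol repeated on several lines (62710 lines, 60835 symbols) was read 1 time. Gene length was not read from an annotation. It was inferred as the median over libraries of the ratio of counts to TPM, relative to the median of tested genes.

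The edgeR expression filter (minimum count 10, minimum total 15) left 15911 genes. TMM scaling and a two-sided robust quasi-likelihood test (edgeR) were applied to the 6 libraries, with no term besides the group. Adjustment was by Benjamini-Hochberg over these genes, with calls below 0.05. The SE is the size of the log2 fold change divided by the square root of F, and 95% intervals use the test's degrees of freedom. No label states that replicates are separate cultures: p-values then measure only how far these samples spread, which may be technical. Pairs of replicates differed by more than sampling noise (a chi-square of 1.83 or more for each degree of freedom). WT replicate 1 stood at 11.33 against WT replicate 2 and 15.6 against WT replicate 3, while the other pairs were at most 2.925. On simulated counts for this comparison over 15911 genes, with 50 genes at each size of change, the test recovered 76% of those changed 1.5-fold and 86% of those changed 2-fold, with 7 false calls among 187.

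The members and lists were chosen with earlier results of these data known. The rule for named genes took all 10 members, SMAD4, called pathway genes or else the smallest p of each list, and, for called members, the 3 genes of nearest pattern with a mean of at least 5 CPM. A gene of the pathway lists is not reported here and is left out of their counts. Other genes are named after their values were seen, among them AKT1, AKT2, GAB1, IRS1, STC2, FOXO3, TSC1 and POLR2B. Promoter sequences are from RefSeq (GRCh38.p14), in which 8 of 10 members matched, and gene overlaps from GENCODE release 29. Alternatives were other scalings and filters, limma-voom, DESeq2, a replicate block, each library left out, limma on log2(TPM + 1) or log2(TPM + 0.1), and removal of the gene length trend of each library. The versions were Python 3.11.15 with pandas 2.3.3 and matplotlib 3.10.9, and R 4.3.3 with DESeq2 1.42.0, limma 3.58.1 and edgeR 4.0.16.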

Additional observations from a re-analysis of the deposited data

How the results depend on the processing

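Of 306 recomputed values for 18 named genes, 294 kept their direction and their side of the threshold, 7 lost and 2 gained a call, and 3 turned direction, all of genes that were not called. These were IGFBP2 without WT replicate 1 or R272K replicate 1 (-0.13 to 0.051 over the libraries left out, 0.0021 without R272K replicate 1), and IGF2R without WT replicate 1 (-0.015 to 0.16). The cause was not tested. IGFBP6 was called in each of 17 alternatives. The number of members called was 1 in each alternative except with the gene length trend removed, where IGFBP7 joined IGFBP6 to give 2. The median log2 fold change of the members, -0.05, ran from -0.13 to 0.0021. Genes called, 193 as reported, numbered 474 with no filter, 619 with the length trend removed, 100 and 96 on log2(TPM + 1) and log2(TPM + 0.1), and 55 to 875 with 1 library left out, the highest without WT replicate 1. Called pathway genes, 1 as reported, numbered 0 on either TPM scale and 0 to 4 with 1 library left out, the highest without WT replicate 1.

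With the replicate number as a block, 262 genes were called and IGFBP6 stood at -0.71 (adjusted p = 0.00131). Libraries of the same number did not deviate together (r = -0.065, -0.0072 and -0.012 over genes). The best match of 0 of 3 WT libraries was their own number. Every r, same number or not, lay between -0.065 and 0.0726, on values centred within groups of 3. Correlations this weak cannot show whether the numbers pair the samples. Depth limits IGFBP1 and IGFBP5, the latter with 24 and 15 reads per group (95% Poisson intervals 15.4 to 35.7 and 8.4 to 24.7, for counting error only).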
